A study of Mus musculus with 35 samples.

Results

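The comparison set muscle that had received 1 dose of ActRIIB-Fc against muscle that never had a working myostatin gene, an acute blockade of ligands against lifelong loss of the gene. Its members were the 8 arrays labelled as 1 dose (3 in experiment 1, 5 in experiment 2) and the 11 arrays labelled as Mstn-null (3 and 8), 19 of the 35 arrays of the series. All were quadriceps of female mice 2 months old, with 1 mouse per array. The 1-dose mice had been given a single dose of ActRIIB-Fc, and the Mstn-null mice are labelled as null for the gene Mstn. The 8 control arrays (3 and 5) serve here only to show each difference beside a common baseline. The strain, the amount of ActRIIB-Fc, the genotype of the treated mice, the time between dose and dissection and the kind of Mstn allele are not stated in the labels.

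Mstn encodes myostatin, a secreted member of the TGF-beta family made mainly by muscle fibres that holds back muscle growth. It binds the activin type II receptors, which act with a type I receptor to phosphorylate Smad2 and Smad3. ActRIIB-Fc joins the outer part of activin receptor type IIB to an antibody Fc stretch and circulates as a decoy. Because activins, Gdf11 and some BMPs bind the same receptor, the decoy can trap more ligands than myostatin. Muscle that developed without myostatin is known to be large and to hold a higher share of fast glycolytic fibres.

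The values were log2 expression levels, 1 per gene and array, and differences are log2 values of 1 dose minus Mstn-null with the standard error (SE) of the fit. A gene was called at a Benjamini-Hochberg adjusted p under 0.05 from limma over 19938 genes. Levels are given within an experiment, since array medians of these classes were 4.40 to 4.51 in experiment 1 against 6.06 to 6.27 in experiment 2. Arrays of a group correlated across genes between 0.954 and 0.996, and 0 pairs were identical. Markers of skeletal muscle were high on every array of both groups. In experiment 2 the mean of the 14 muscle identity genes was between 13.13 and 13.25 after 1 dose and between 12.83 and 13.28 in Mstn-null mice.

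Values spread less on the Mstn-null arrays on average. Their interquartile range over genes was 2.39 to 2.44 in experiment 1 and 2.14 to 2.42 in experiment 2, against 2.55 to 2.61 and 2.37 to 2.64 after 1 dose. In experiment 1 the groups did not overlap, and in experiment 2 they did. Over both experiments the range was wider after 1 dose by 0.17 ± 0.04 (SE) in log2 units (exact permutation within experiments, two-sided p = 0.00113, 25740 permutations). The control arrays lay at 2.47 to 2.74 and 2.50 to 2.65. In experiment 2, the first principal component of the control, 1-dose and Mstn-null arrays held 51.5% of the variance. Controls lay between -35.5 and -22.9 on it, 1-dose arrays between -25.8 and -4.0, and Mstn-null arrays between -10.4 and 52.6. Mstn-null replicate 5 lay at -10.4, among the 1-dose arrays, and replicates 2, 6, 7 and 8, the 4 narrowest at 2.14 to 2.22, lay between 22.9 and 52.6, as did replicate 1 at 32.6 with a range of 2.31. Counts are therefore also given with each array's range as a covariate and without those 4 arrays.

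Of the 19938 genes, 3354 (16.8%) were called. After 1 dose 2178 (10.9%) were higher than in Mstn-null muscle and 1176 (5.9%) were lower, and 3281 of the calls had the same sign in both experiments. The calls were made on both experiments together, which favours equal signs, so that count is no independent check. Differences of at least 2-fold were nearly all in 1 direction, with 110 genes higher (0.552%) and 6 lower (0.0301%). The median over all genes was -0.06. Higher genes made up 64.9% of the calls, 52.4% after quantile normalization, 77.9% with arrays centred on their medians and 52.3% with the array range as a covariate. With that covariate 501 genes (2.51%) were called, 262 higher (1.31%) and 239 lower (1.2%). Without the 4 narrowest Mstn-null arrays 1018 (5.11%) were called, 676 higher (3.39%) and 342 lower (1.72%).

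Medians against control describe genes that were chosen by their difference. Over all 2178 higher genes the median was -0.06 for 1 dose minus control and -0.52 for Mstn-null minus control. Over all 1176 lower genes these medians were -0.01 and 0.26. The few genes at least 2-fold lower did not follow the median of all lower genes for 1 dose. The 110 genes at least 2-fold higher after 1 dose had a median of -0.21 for 1 dose minus control and of -1.37 for Mstn-null minus control. For the 6 genes at least 2-fold lower after 1 dose these medians were -0.90 and 0.27. Both values share the control arrays. Of the 110 higher genes 82 were still called without the 4 narrowest arrays and 46 with the range covariate, while all 6 lower genes were called under each of these 2 settings. The share of higher calls also rose with brightness. Of the 1994 genes with the highest mean level 32.6% were higher after 1 dose and 6.97% lower, against 1.65% and 6.57% in the fourth of 10 bins by level.

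**Figure D1:**
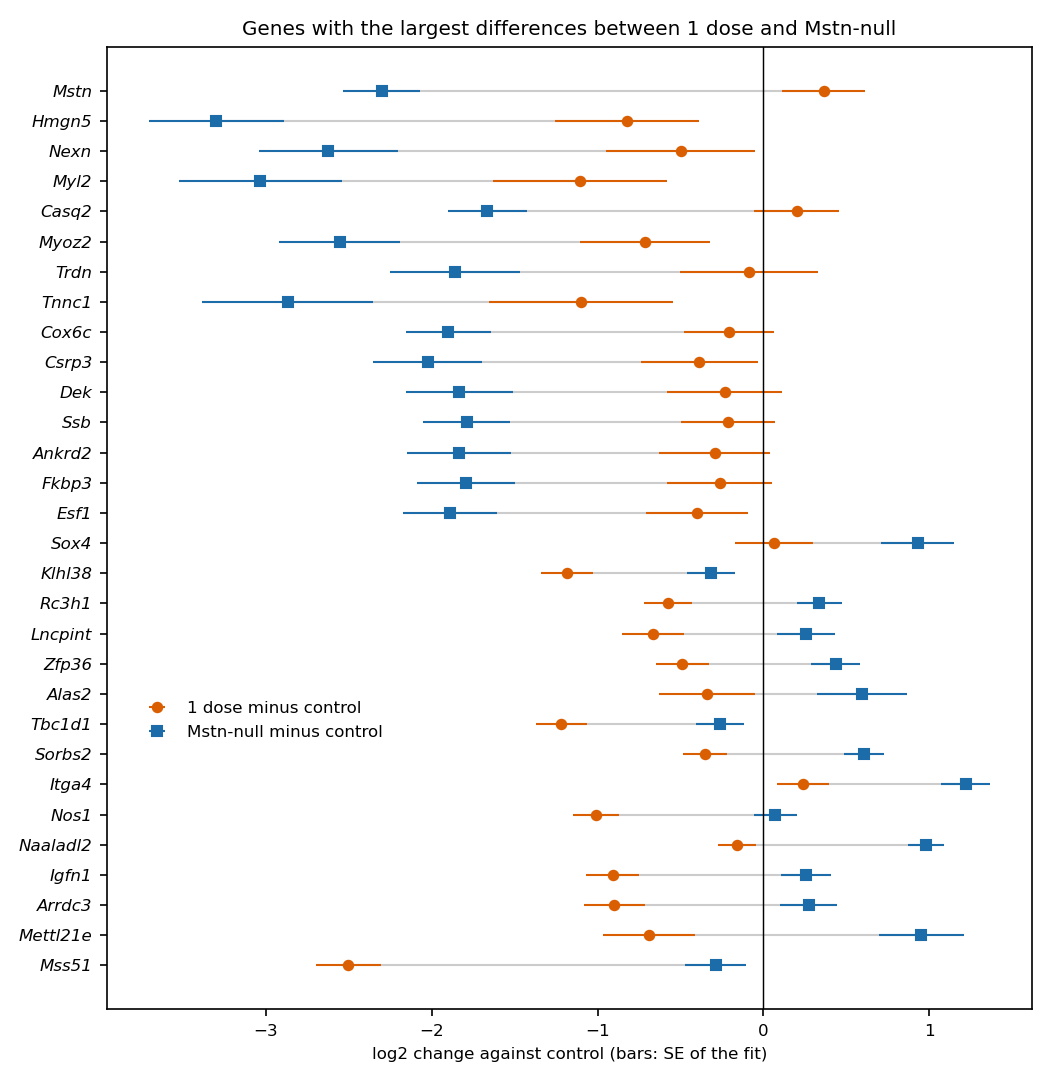
Log2 change against control, with the SE of the fit, for the 15 genes with the largest higher and the 15 with the largest lower values after 1 dose relative to Mstn-null (orange circles, 1 dose minus control; blue squares, Mstn-null minus control). For most genes of the upper block the blue square lies far left, as for Casq2 at -1.66 beside 0.20, while Mss51, at the bottom, has the orange circle at -2.50 and the blue square at -0.29.

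Mstn, the gene for which the null mice are labelled null, showed the largest difference of all named genes. In experiment 1 its level was 7.39, 8.18 and 8.40 after 1 dose and 5.78, 5.95 and 6.69 in Mstn-null muscle. In experiment 2 it was 10.03, 10.07, 10.20, 10.40 and 10.44 after 1 dose, and Mstn-null arrays ran from 6.29 through a median of 7.31 to 7.84. The groups did not overlap in either experiment, and controls at 6.77 to 7.68 and 9.84 to 10.21 lay near or below the 1-dose arrays. The difference was 2.67 ± 0.23 SE, or 6.35-fold (limma, adjusted p = 1.55e-09). Replicate 5, which lay nearest to controls in its general profile, had a Mstn level of 7.84, well below every control. The labels do not say which part of the transcript this probe row covers.

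Mss51 was the gene with the largest lower value after 1 dose. It encodes a muscle protein that localizes to mitochondria. Its level in experiment 1 was 4.15, 4.28 and 4.61 after 1 dose and 6.37, 6.70 and 6.70 in Mstn-null muscle. In experiment 2 it was 6.87, 6.89, 7.26, 7.62 and 7.72 after 1 dose, against a lowest of 8.77, a median of 9.49 and a highest of 10.81 in Mstn-null muscle. Every 1-dose array lay below every Mstn-null array of its experiment. In experiment 1 the Mstn-null arrays overlapped the controls at 6.18 to 6.67. In experiment 2 Mstn-null replicate 4 at 10.81 lay above the controls at 9.63 to 10.38. Every other Mstn-null array there lay below those controls, the next highest at 9.58. The difference was -2.22 ± 0.18 SE, 4.65-fold (limma, adjusted p = 6.54e-10), and it was -2.45 with the range covariate (adjusted p = 6.25e-10).

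The other genes at least 2-fold lower after 1 dose were Mettl21e, Arrdc3, Igfn1, Naaladl2 and Nos1. Mettl21e encodes a protein methyltransferase found mostly in muscle. Its difference was -1.64 ± 0.26 SE (limma, adjusted p = 6.69e-05), with 4.11 to 4.89 after 1 dose and 6.65 to 7.23 in Mstn-null muscle in experiment 1, and an overlap in experiment 2. It stood at -0.69 for 1 dose minus control and at 0.95 for Mstn-null minus control. Arrdc3, an arrestin-domain gene, was lower by a difference of -1.17 ± 0.17 SE (adjusted p = 3.29e-05). Igfn1 encodes an immunoglobulin and fibronectin domain protein of the sarcomere and differed by -1.17 ± 0.15 SE (adjusted p = 4.6e-06). Its experiment 1 levels were 4.72 to 5.14 after 1 dose and 5.76 to 6.58 in Mstn-null muscle, without overlap.

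Naaladl2 and Nos1 were lower on every 1-dose array than on every Mstn-null array in both experiments. For Nos1, the neuronal nitric oxide synthase that sits under the fibre membrane, 1-dose levels were 6.32, 6.33 and 6.44 in experiment 1 and 7.36 to 8.11 in experiment 2. Mstn-null levels were 6.88, 6.91 and 7.16 and, in experiment 2, 8.41 to 9.43 with a median of 9.08. The difference was -1.08 ± 0.13 SE (limma, adjusted p = 2.27e-06), with -1.01 for 1 dose and 0.07 for Mstn-null against the shared controls. Naaladl2 differed by -1.14 ± 0.11 SE (adjusted p = 7.4e-09), with -0.16 for 1 dose and 0.98 for Mstn-null against controls. The Nos1 value for Mstn-null averages unlike experiments: null arrays lay below every control of experiment 1 (7.39 to 7.65) and on both sides of the controls of experiment 2 (8.56 to 8.73), while 1-dose arrays lay below every control in both. Naaladl2 in Mstn-null muscle lay above every control in both experiments, at 4.28 to 4.90 against 3.25 to 3.69 and at 5.63 to 6.64 against 5.10 to 5.47. Those control levels of Naaladl2 lay below the medians of the same arrays, 4.40 to 4.44 and 6.06 to 6.12, where the size of a difference is less sure.

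**Figure D2:**
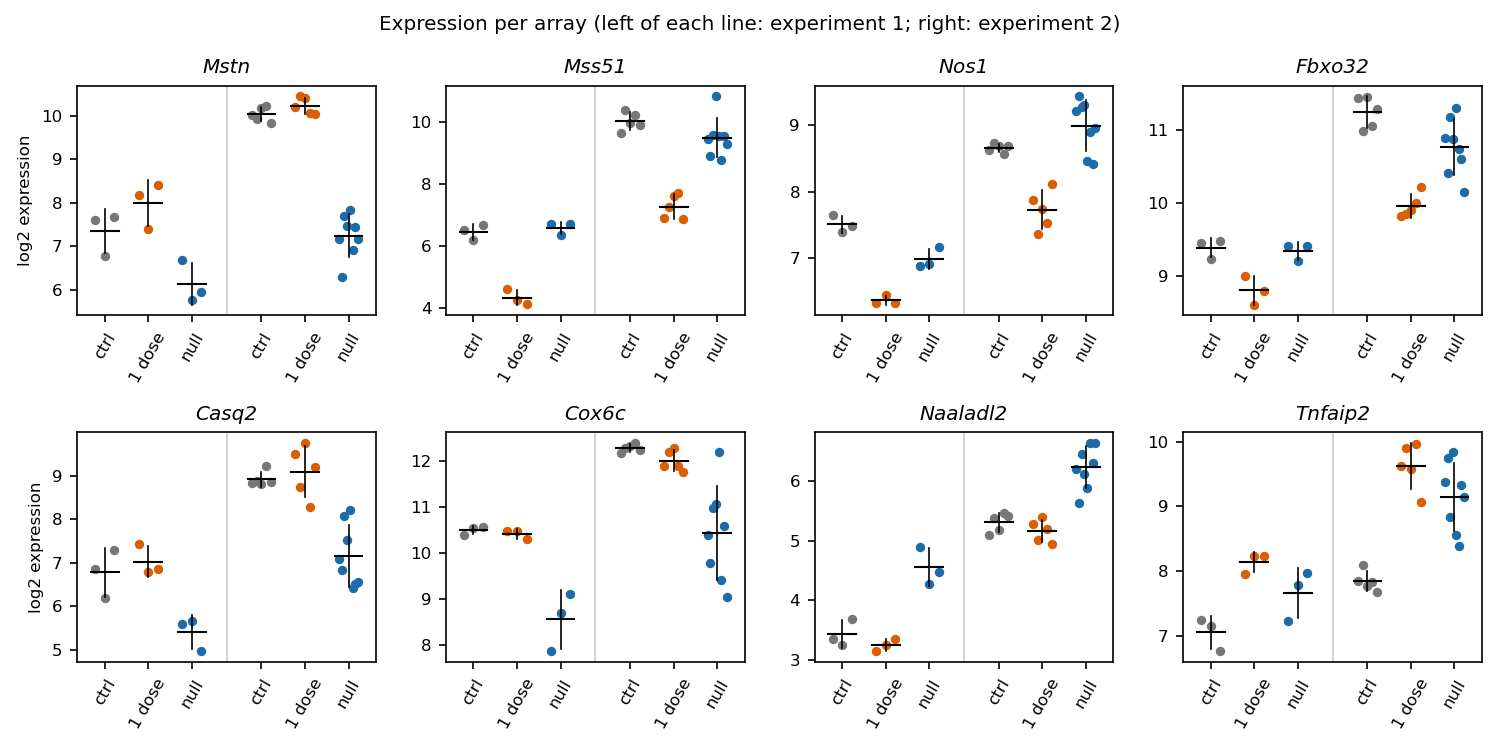
Log2 expression on each array of 8 genes in control (grey), 1-dose (orange) and Mstn-null (blue) mice; horizontal bars are group means and vertical bars are SDs, and the grey line parts experiment 1 (left) from experiment 2 (right). Mss51 after 1 dose lies at 4.15 to 4.61 and 6.87 to 7.72, below every other array shown of its experiment, and Cox6c in Mstn-null muscle spreads from 9.03 to 12.20 in experiment 2.

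Among the next lower genes, Sorbs2, an adaptor of the Z-disc and of actin filaments, and Tbc1d1, a Rab GTPase-activating protein that acts on glucose transporter traffic, also had groups that did not overlap in either experiment. Sorbs2 differed by -0.96 ± 0.12 SE (limma, adjusted p = 4.15e-06) and Tbc1d1 by -0.95 ± 0.14 SE (adjusted p = 5.41e-05). Against the shared controls Tbc1d1 stood at -1.22 after 1 dose and at -0.26 in Mstn-null muscle, and Sorbs2 at -0.35 and 0.61. Over all genes, 46 (0.231%) had every 1-dose array below every Mstn-null array in both experiments, and 92 (0.461%) had every 1-dose array above. The integrin subunit gene Itga4 differed by -0.98 (adjusted p = 4.4e-05). Its Mstn-null replicates 6 to 8 of experiment 2 stood at 10.04 to 10.22 and replicates 1 to 5 at 8.68 to 9.40, against 8.36 to 8.72 after 1 dose. Zfp36 at -0.93 and Rc3h1 at -0.91 both encode proteins that bind messenger RNAs and promote their decay. Klhl38, Sox4 and Lncpint, a long non-coding RNA gene, were lower by differences of -0.87, -0.86 and -0.92. Alas2, the haem synthesis enzyme of red cell precursors, was called at -0.93 (adjusted p = 0.0152) but not with the range covariate (adjusted p = 0.0891).

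Start-site sequence was set beside these genes to show which letters of common muscle and Smad motifs lie there. The 250 bases before the start, from RefSeq on GRCm38.p6, are shown for 3 called genes, with the match in capitals: Mss51 (chr14:20496902-20497151, minus strand) for the palindrome GTCTAGAC, bound by Smad3 and Smad4; Igfn1 (chr1:136006343-136006592, minus strand) for the FoxO motif GTAAACA or its reverse complement TGTTTAC; and Casq2 (chr3:102086165-102086414, plus strand), a higher gene described further on, for the MEF2 motif CTAAAAATA or its reverse complement TATTTTTAG. They were chosen for holding a match.
Mss51: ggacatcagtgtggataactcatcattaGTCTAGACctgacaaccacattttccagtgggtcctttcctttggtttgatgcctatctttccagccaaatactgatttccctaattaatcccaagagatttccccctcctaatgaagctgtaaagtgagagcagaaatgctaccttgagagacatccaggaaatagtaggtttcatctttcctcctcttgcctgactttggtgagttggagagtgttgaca
Igfn1: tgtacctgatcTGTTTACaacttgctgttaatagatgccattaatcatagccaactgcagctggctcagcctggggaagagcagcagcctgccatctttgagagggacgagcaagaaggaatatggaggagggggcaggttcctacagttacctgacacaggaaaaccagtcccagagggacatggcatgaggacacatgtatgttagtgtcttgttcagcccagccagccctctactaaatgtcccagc
Casq2: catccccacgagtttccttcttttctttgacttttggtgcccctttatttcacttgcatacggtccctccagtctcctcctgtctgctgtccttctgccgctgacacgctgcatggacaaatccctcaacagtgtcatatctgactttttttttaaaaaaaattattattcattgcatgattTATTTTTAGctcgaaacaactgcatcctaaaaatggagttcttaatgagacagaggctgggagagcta

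Among 32851 mouse start-site windows of this length, searched on both strands, the Smad palindrome was in 0.167%, the MEF2 motif in 0.469% and the FoxO motif in 3.17%. Of the 123 called named genes, 70 of 86 higher and 25 of 37 lower ones had a window. The Smad palindrome was in 0 windows of higher and 1 of lower genes, the MEF2 motif in 2 and 0 (Casq2 and Asb12), and the FoxO motif in 0 and 1. The E-box CAGCTG, a letter group read by myogenic factors, was in 13% of all windows, and 10 of the 70 higher and 10 of the 25 lower genes had it, counting any of a gene's start sites. The estrogen-related receptor motif TCAAGGTCA or TGACCTTGA, in 0.387% of all windows, was in 0 windows of these genes. A match is a description of the letters and no evidence of binding.

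Slow-fibre transcripts were higher after 1 dose than in Mstn-null muscle. Of 14 measured genes 12 were called higher and 0 lower, beside 10.9% higher of all genes, with a median of 1.39 beside -0.06 over all genes. The list's median was -0.75 for 1 dose minus control and -2.01 for Mstn-null minus control, values that share the controls. With the range covariate the list's median was 0.69 and 1 gene, Casq2, was called, beside 1.31% of all genes, and without the 4 narrowest arrays 4 were called, beside 3.39%. The mean of the list varied widely between mice. In experiment 1 it ran from 6.35 to 8.06 after 1 dose and from 5.69 to 6.62 in Mstn-null muscle. In experiment 2 it ran from 7.72 to 9.98 after 1 dose and from 6.72 to 8.89 in Mstn-null muscle. The groups thus overlapped in both experiments. As the samples were whole muscle, fewer slow fibres and less slow-fibre RNA per fibre cannot be told apart, and the same holds for every cell type marker here.

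Casq2, the calsequestrin of slow fibres and heart that stores calcium, was the slow-fibre gene with the smallest p. It stood at 6.78, 6.86 and 7.43 after 1 dose and at 4.96, 5.60 and 5.65 in Mstn-null muscle in experiment 1. Experiment 2 gave 8.27, 8.74, 9.19, 9.49 and 9.75 after 1 dose, and 6.42 to 8.21 with a median of 6.95 in Mstn-null muscle. All 1-dose arrays lay above all Mstn-null arrays of their experiment. The difference was 1.86 ± 0.24 SE, 3.64-fold (limma, adjusted p = 4.6e-06), and 1.31 with the range covariate (adjusted p = 0.000292).

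The other slow-fibre genes overlapped more. Myl2, the slow and cardiac myosin light chain, differed by 1.93 ± 0.49 SE (limma, adjusted p = 0.00603). After 1 dose it ran from 6.27 to 8.87 and from 8.37 to 11.06, and in Mstn-null muscle from 5.66 to 7.47 and from 6.03 to 9.86, so both experiments overlapped. Myl2 and the slow troponin gene Tnnc1 (1.77, adjusted p = 0.0163) lost their calls with the range covariate (adjusted p = 0.273 and 0.424) and without the 4 narrowest arrays (adjusted p = 0.187 and 0.264). Myoz2, a calcineurin-binding protein of the slow Z-disc, differed by 1.84, Csrp3, the muscle LIM protein, by 1.64, and Ankrd2, a stretch-responsive ankyrin repeat protein, by 1.54. These 3 were called without the 4 narrowest arrays (adjusted p = 0.0146, 0.0348 and 0.0273) and not with the range covariate (adjusted p = 0.0792, 0.081 and 0.0894).

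Fast-fibre genes showed no such pattern as a group. Of 16 measured, 3 were higher (beside 10.9% of all genes) and 1 lower, with a median of 0.09. The 3 were Myh2, the myosin of fast oxidative fibres, at 1.05 (adjusted p = 0.00452), Myh1, the myosin of intermediate fast fibres, at 0.40 (adjusted p = 0.00527), and the fast troponin gene Tnnc2 at 0.35 (adjusted p = 0.00828). None of the 3 was called with the range covariate (adjusted p = 0.22 to 0.224). Mylk2, the kinase of the fast myosin light chain, was lower at -0.38 (adjusted p = 0.00955).

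Genes of the Z-disc, thin filament and M-band were higher in 13 of 22 cases and lower in 0, beside 10.9% and 5.9% of all genes, with a median of 0.37. With the range covariate 4 of the 22 were called higher, beside 1.31% of all genes, and without the 4 narrowest arrays 7, beside 3.39%. Myom3, the M-band protein of slow and intermediate fibres, differed by 0.99 ± 0.13 SE (limma, adjusted p = 8.28e-06). Lmod3, a leiomodin that starts thin filaments, differed by 1.18 ± 0.18 SE (adjusted p = 5.92e-05). Neither gene's groups overlapped in either experiment, as for Lmod3 with 9.66 to 10.16 after 1 dose and 7.42 to 9.45 in Mstn-null muscle in experiment 2. Fhl1, a LIM-domain protein, differed by 1.36 and Tcap, which caps titin at the Z-disc, by 0.79. Nexn, an actin-binding Z-disc protein, differed by 2.12 ± 0.42 SE (adjusted p = 0.000674), but not past the threshold with the range covariate (1.31, adjusted p = 0.0707). On its Mstn-null arrays of experiment 2 it ran from 6.64 to 11.30.

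**Figure D3:**
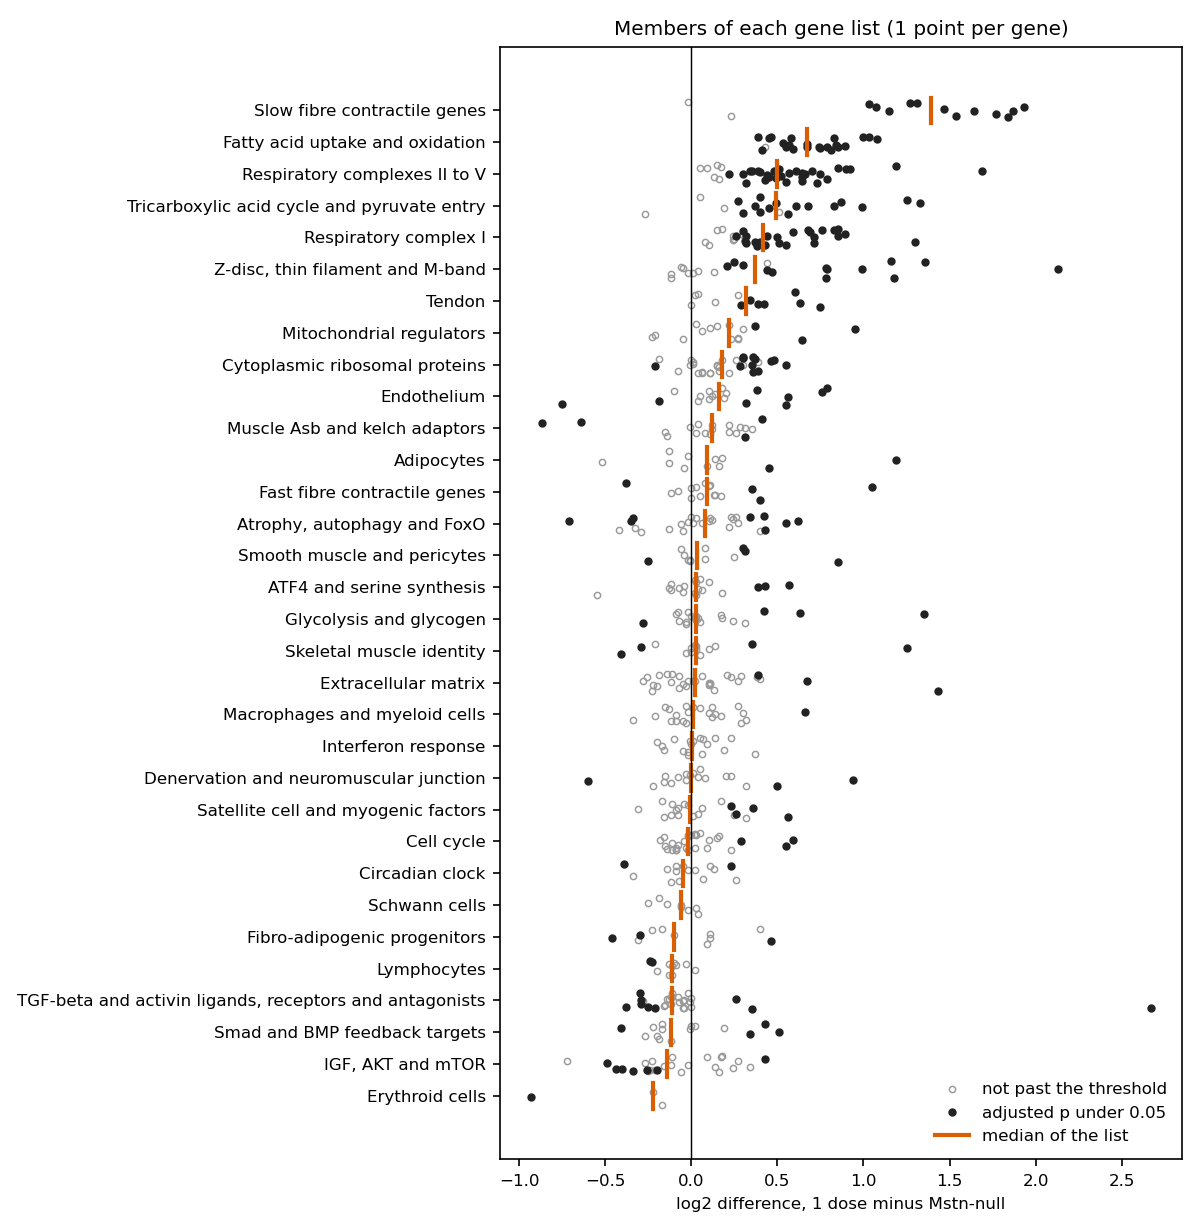
Log2 difference, 1 dose minus Mstn-null, of every measured member of 32 gene lists (1 point per gene; filled, adjusted p under 0.05; orange bar, median of the list). Slow-fibre genes have the highest median at 1.39, fatty acid genes follow at 0.67, and lists such as the cell cycle at -0.02 centre near 0.

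Genes of oxidative metabolism were higher after 1 dose in nearly every list. Fatty acid uptake and oxidation had 22 of 23 genes higher and 0 lower, with a median of 0.67. The tricarboxylic acid cycle had 15 of 19 higher, with a median of 0.49, respiratory complexes II to V had 30 of 36, with 0.50, and complex I had 24 of 32, with 0.42. Over all genes 10.9% were higher and 5.9% lower, and of the 1994 genes with the highest mean level 32.6% were higher and 6.97% lower. No gene of these 4 lists was called lower, and their shares of higher genes were 95.7%, 78.9%, 83.3% and 75% in the order named. The medians for 1 dose minus control were -0.13, -0.11, -0.10 and -0.10, and those for Mstn-null minus control were -0.82, -0.55, -0.60 and -0.47, on shared controls. Without the 4 narrowest arrays 18, 8, 15 and 10 genes were called higher, beside 3.39% of all genes. With the range covariate 9, 7, 6 and 5 were called higher, beside 1.31% of all genes. After quantile normalization the counts were 20, 12, 19 and 14, beside 8.37%, with 1 tricarboxylic acid cycle gene lower.

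Acadl, the long-chain acyl-CoA dehydrogenase of fatty acid oxidation, had 1-dose levels of 8.69, 8.69 and 8.79 and Mstn-null levels of 7.78, 7.97 and 8.44 in experiment 1. In experiment 2 it stood at 10.86 to 11.24 after 1 dose and at 9.28 to 10.81, with a median of 9.72, in Mstn-null muscle. The groups did not overlap in either experiment, and the difference was 1.0 ± 0.15 SE (limma, adjusted p = 6.2e-05). The medium-chain enzyme Acadm differed by 0.84 (adjusted p = 3.29e-05), the very-long-chain enzyme Acadvl by 0.67 and Hadhb, a subunit of the trifunctional protein, by 0.79. All 4 stayed past the threshold with the range covariate (adjusted p = 0.00323 to 0.0139). Ucp3, a mitochondrial carrier, was the 1 gene of the list that was not called (0.43, adjusted p = 0.112).

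In the tricarboxylic acid cycle, Idh2, the mitochondrial isocitrate dehydrogenase, differed by 0.99 ± 0.13 SE (limma, adjusted p = 1.17e-05) with no overlap in either experiment. Mdh1 (cytosolic malate dehydrogenase) differed by 0.83, Pdhb (a pyruvate dehydrogenase subunit) by 0.68 and Fh1 (fumarase) by 0.56. In complex I, Ndufa5 differed by 1.30 (adjusted p = 6.41e-05), Ndufb3 by 0.89, Ndufs1 by 0.71 and Ndufab1 by 0.59, all accessory or core subunits, and Ndufab1 did not overlap in either experiment.

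Cox6c, a subunit of cytochrome c oxidase, had the largest difference of the respiratory genes at 1.69 ± 0.26 SE, 3.23-fold (limma, adjusted p = 4.82e-05). In experiment 1 its levels were 10.29, 10.47 and 10.48 after 1 dose and 7.85, 8.69 and 9.11 in Mstn-null muscle. In experiment 2 they were 11.75 to 12.28 after 1 dose and 9.03 to 12.20 in Mstn-null muscle. Only Mstn-null replicate 5, at 12.20, reached the 1-dose range there, and the next highest stood at 11.07. Cox7b of the same complex differed by 1.19, Uqcrfs1, the iron-sulphur protein of complex III, by 0.92, and Sdhd, a membrane anchor of complex II, by 0.79. These 4 genes were called with the range covariate as well (adjusted p = 0.00595 to 0.0285).

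**Figure D4:**
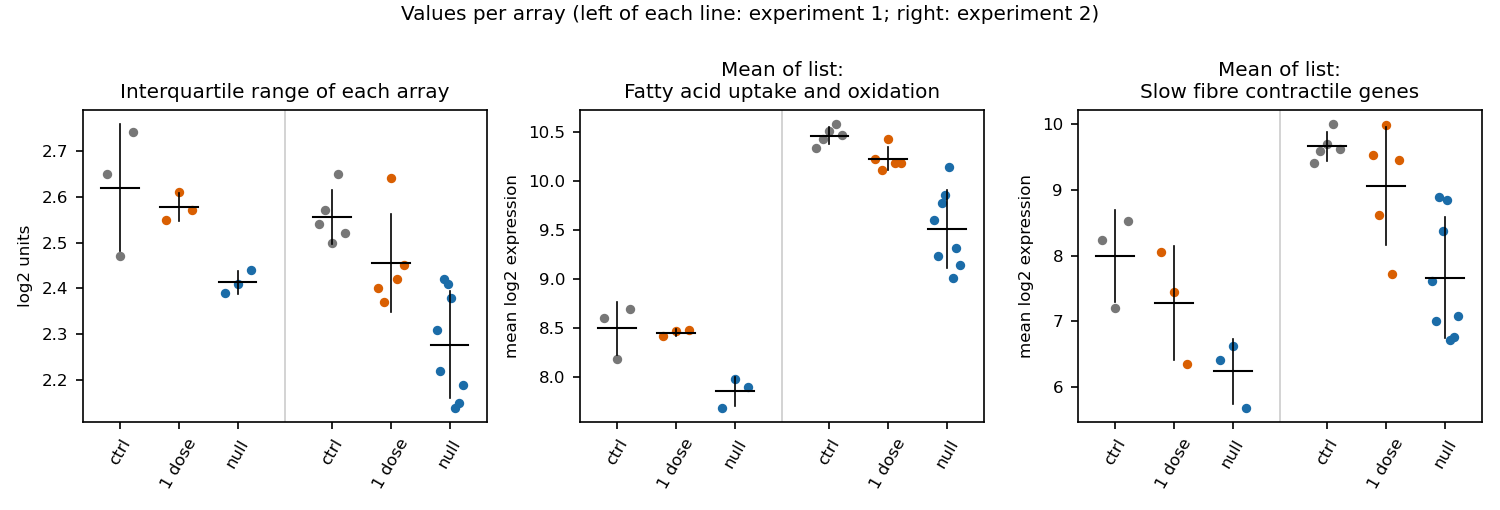
Per array, the interquartile range of all genes (left) and the mean log2 expression of the fatty acid list (middle) and of the slow-fibre list (right) in control (grey), 1-dose (orange) and Mstn-null (blue) mice; horizontal bars are group means and vertical bars are SDs, and the grey line parts experiment 1 from experiment 2. The Mstn-null ranges of 2.14 to 2.42 in experiment 2 overlap the 1-dose ranges of 2.37 to 2.64, and the Mstn-null fatty acid means of 9.01 to 10.15 there reach up to the lowest 1-dose mean of 10.12.

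Other metabolic lists moved less. Of 21 glycolysis and glycogen genes 3 were higher (14.3%) and 1 was lower, near the 10.9% and 5.9% of all genes, with a median of 0.03. The largest was Ldhb, the lactate dehydrogenase subunit of oxidative tissue, at 1.35 ± 0.22 SE (limma, adjusted p = 8.14e-05), followed by Gbe1 (glycogen branching enzyme) at 0.63 and Pgk1 at 0.42, while Phka1, a phosphorylase kinase subunit, stood at -0.28. Gbe1, Pgk1 and Phka1 were not called with the range covariate (adjusted p = 0.103, 0.121 and 0.097). Of 15 regulators of mitochondrial genes 3 were higher (20%, beside 10.9% of all genes), Tfam (0.95), which packages mitochondrial DNA, Tfb2m (0.64), a mitochondrial transcription factor, and the nuclear receptor gene Esrrg (0.37). None of the 15 was called with the range covariate. Mb, which encodes the oxygen-binding myoglobin, differed by 1.25 ± 0.23 SE (adjusted p = 0.000316), without overlap in either experiment. The cytoplasmic ribosomal list had 11 of 33 higher (33.3%) and 1 lower. That share lay above the 10.9% of all genes but close to the 32.6% of the 1994 genes with the highest mean level. The list was bright, with means of 8.36 to 8.88 in experiment 1 and 9.70 to 10.42 in experiment 2 over both groups. A difference from genes of equal level was not tested. After quantile normalization 3 of the list were higher and 3 lower (beside 8.37% and 7.59%), and with the range covariate 0 were called.

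Within the pathway that the decoy and the null allele share, 3 of 28 measured genes were higher (10.7%) and 6 were lower, beside 10.9% and 5.9% of all genes, Mstn itself being the first of the 3. Of the ligands, Tgfb2 was higher (0.35, adjusted p = 0.0193) and Tgfb1 (-0.25) and the activin subunit gene Inhbb (-0.29) were lower, while Gdf11 (-0.05) and Inhba (-0.02) were not called. Of the receptors, the coreceptor gene Tgfbr3 was lower (-0.38, adjusted p = 0.00372). Acvr2b, the receptor whose outer part makes up the decoy, stood at -0.15 (adjusted p = 0.215) and Acvr2a at -0.16 (adjusted p = 0.358). Smad3 and Smad4, which carry the signal to the nucleus, were lower at -0.29 and -0.30. Of the antagonists, Fst, which encodes the activin- and myostatin-binding follistatin, was higher at 0.26 ± 0.06 SE (adjusted p = 0.00246), and the myostatin-binding protein gene Wfikkn1 was lower at -0.21. With the range covariate 2 genes of the list were higher and 2 lower, Mstn and Fst (adjusted p = 0.00971) and Smad3 and Smad4 (adjusted p = 0.0301 and 0.0267).

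Feedback targets of Smad and BMP signals were called in 4 of 15 cases, 3 higher and 1 lower, beside 16.8% called over all genes. After quantile normalization 3 were higher and 4 lower. The BMP-responsive inhibitors of differentiation Id1 (0.34), Id2 (0.43) and Id3 (0.51) were higher after 1 dose (limma, adjusted p = 0.0143, 0.00225 and 0.0036). In experiment 1 their groups did not overlap, and in experiment 2 they did, as for Id3 with 5.91 to 6.45 against 5.56 to 6.18. They were not called with the range covariate (adjusted p = 0.0903, 0.12 and 0.0598). Pmepa1, a TGF-beta target that dampens Smad signals, was lower at -0.41 ± 0.09 SE (adjusted p = 0.00252, with the covariate 0.00794), with -0.52 for 1 dose and -0.11 for Mstn-null against shared controls.

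Genes of atrophy, autophagy and FoxO signalling went in both directions, 5 of 28 higher (17.9%) and 3 lower, beside 10.9% and 5.9% of all genes, with a median of 0.08. After quantile normalization 4 were higher and 6 lower, with a median of -0.05. Fbxo32, the muscle ubiquitin ligase atrogin-1, was lower. It stood at 8.60, 8.79 and 9.0 after 1 dose and at 9.20, 9.40 and 9.41 in Mstn-null muscle in experiment 1, without overlap. The ranges of experiment 2 were 9.82 to 10.22 after 1 dose and 10.15 to 11.30 in Mstn-null muscle, with an overlap of single arrays. The difference was -0.71 ± 0.13 SE (limma, adjusted p = 0.000416), and -0.85 with the range covariate. Sqstm1, an autophagy receptor, and Foxo3 were lower at -0.34 and -0.35, while the mitophagy receptors Bnip3 (0.62) and Bnip3l (0.43), Foxo4 (0.55), Atg12 (0.34) and Nfe2l1 (0.42), a regulator of proteasome genes, were higher. With the range covariate 0 genes of this list were higher and 2 were lower, Fbxo32 and Sqstm1.

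Adaptors of muscle ubiquitin ligases were called in 4 of 19 cases, 2 in each direction, close to the 16.8% called over all genes. Asb2 was lower on every 1-dose array than on every Mstn-null array, at 9.41 to 9.60 against 10.08 to 10.19 in experiment 1 and at 11.72 to 12.01 against 12.18 to 12.78 in experiment 2. Its difference was -0.64 ± 0.09 SE (limma, adjusted p = 3.29e-05). Klhl38 was lower as given above, and Klhl41, which stabilizes thin filament proteins, and Asb12 were higher at 0.31 and 0.41. The calls of Klhl41 and Asb12 were lost after quantile normalization (adjusted p = 0.0971 and 0.126).

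Of 26 genes of the IGF, AKT and mTOR pathway 1 was higher and 6 were lower, beside 10.9% and 5.9% of all genes. The lower ones were Tsc2 (-0.44) and Tsc1 (-0.20), which restrain mTOR, Rictor (-0.49), a subunit of mTOR complex 2, the kinase gene Pdpk1 (-0.40), the mTOR inhibitor gene Deptor (-0.26) and the growth factor binding protein gene Igfbp5 (-0.34). Rheb, which activates mTOR, was higher (0.43). The counts moved with the scaling, to 0 higher and 13 lower after quantile normalization, which called 7.59% of all genes lower, and to 0 and 0 with the range covariate.

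Some genes with a large change against control in both groups did not pass between them. Tnfaip2 stood at 1.52 for 1 dose and 1.06 for Mstn-null against shared controls, with a difference of 0.46 (95% interval of the gene alone 0.12 to 0.81, adjusted p = 0.056). With arrays centred on their medians it was called (adjusted p = 0.0434). Inmt, a methyltransferase gene, stood at -1.44 and -1.88, with a difference of 0.44 (interval 0.00 to 0.87, adjusted p = 0.146). Chac1, which breaks down glutathione, stood at -1.40 and -0.86, with a difference of -0.55 (interval -0.99 to -0.10, adjusted p = 0.0772). After quantile normalization Chac1 was called (adjusted p = 0.0367).

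The insulin receptor substrate gene Irs1 stood at 0.79 and 0.95, with a difference of -0.16 (interval -0.51 to 0.20, adjusted p = 0.524). Trim63, the ubiquitin ligase MuRF1, stood at -0.93 and -0.60 and differed by -0.33 (interval -0.63 to -0.03, adjusted p = 0.115). It was called after quantile normalization (adjusted p = 0.00866) and without the 4 narrowest arrays (adjusted p = 0.0247). Igf2, a growth factor gene, had no large change against control, at 0.12 after 1 dose (limma, adjusted p = 0.67) and 0.36 in Mstn-null muscle. It differed by -0.24 (interval -0.43 to -0.05, adjusted p = 0.0696), and it too was called after quantile normalization (adjusted p = 0.0134). A missed threshold does not show that these genes were equal, and the intervals give the sizes that the arrays allow.

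The largest higher genes outside the fibre and energy lists were Hmgn5, Trdn, Dek, Ssb, Fkbp3 and Esf1. Hmgn5 encodes a nucleosome-binding protein and differed by 2.48 ± 0.41 SE (limma, adjusted p = 0.000119). It stood at 5.30 to 5.46 after 1 dose and at 1.99 to 2.50 in Mstn-null muscle in experiment 1. Those Mstn-null levels lay well below the medians of the same arrays, 4.46 to 4.51, where the size of a difference is less sure. Against shared controls Hmgn5 stood at -0.82 after 1 dose and at -3.3 in Mstn-null muscle. In experiment 2 its level ran from 5.93 to 7.71 after 1 dose, and in Mstn-null muscle from 3.73 to 7.37 with a median of 4.93. Trdn, the triadin of the calcium release complex, differed by 1.77 ± 0.39 SE (adjusted p = 0.00189). The chromatin protein gene Dek (1.60), the RNA-binding protein gene Ssb (1.58), the immunophilin gene Fkbp3 (1.53) and the nucleolar factor gene Esf1 (1.49) followed. Of these 6, Trdn, Dek, Fkbp3 and Esf1 were not called with the range covariate (adjusted p = 0.132, 0.0909, 0.0615 and 0.0607).

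Lists of other functions held few calls. The cell cycle list had 3 of 28 higher, 10.9% being higher over all genes, with Pcna (0.59), the sliding clamp of DNA replication, Ccne2 (0.55) and Cdk2 (0.29). The amino acid stress list of ATF4 and serine synthesis had 3 of 19 higher, Ddit3 (0.43), Atf4 (0.39) and Nars (0.57). Extracellular matrix genes had 3 of 31 higher, Aspn (1.43), Postn (0.67) and Fmod (0.39). Genes of the neuromuscular junction and denervation had 2 of 18 higher, Gadd45a (0.94) and the acetylcholine receptor subunit Chrnb1 (0.50), and 1 lower, Musk (-0.60), the kinase that clusters those receptors. Satellite cell and myogenic genes had 4 of 20 higher, Myf6 (0.56), Mamstr (0.36), Vcam1 (0.26) and Myf5 (0.23). The circadian list had 1 higher and 1 lower of 15, and the interferon list 0 of 18. Of all called genes of these 7 lists, Ddit3 (adjusted p = 0.0241) and Musk (adjusted p = 0.00407) were also called with the range covariate, and Chrna1, named here for that covariate, was called with it alone (-0.41, adjusted p = 0.0307).

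Markers of other cell types were read for cells that whole muscle also holds. Tendon markers were higher in 7 of 12 cases and lower in 0, beside 10.9% and 5.9% of all genes, with a median of 0.31, among them Tnmd (0.75), Kera (0.60) and Prg4 (0.63). In experiment 2 the mean of the list ran from 7.62 to 8.00 after 1 dose and from 7.14 to 7.62 in Mstn-null muscle. In experiment 1 every Mstn-null mean lay inside the 1-dose range, 5.53 to 5.75 within 5.46 to 6.01, and Kera differed by 0.0016 there against 0.84 in experiment 2. Without the 4 narrowest arrays 3 tendon markers were called, and 0 with the range covariate. Endothelial markers had 6 of 18 higher (33.3%, beside 10.9% of all genes), among them Kdr (0.76), Eng (0.56) and Egfl7 (0.55), and 2 lower, with Ptprb, a phosphatase of vessel walls, at -0.75 ± 0.11 SE (limma, adjusted p = 4.82e-05) and no overlap in either experiment. In experiments 1 and 2 Kdr differed by 1.37 and 0.47, Eng by 0.81 and 0.45 and Egfl7 by 1.045 and 0.29, and none of them was called in experiment 2 alone. The list's 1-dose means lay above the Mstn-null means in experiment 1 (6.32 to 6.45 against 5.94 to 6.09). In experiment 2 they lay inside the Mstn-null range (7.72 to 7.94 against 7.44 to 8.09). Kdr and Eng were not called with the range covariate (adjusted p = 0.173 and 0.106). Smooth muscle and pericyte markers had 3 of 12 higher and 1 lower, adipocyte markers 2 of 11 higher with Fabp4 at 1.20, and fibro-adipogenic progenitor markers 1 of 11 higher and 2 lower, with shares of higher genes of 25%, 18.2% and 9.09% beside the 10.9% of all genes. None of these calls stayed with the range covariate. Of 23 macrophage markers 1 was higher, Lyz2 (0.66), of 11 lymphocyte markers 2 were lower, Cd8a (-0.24) and Cd2 (-0.23), and of 8 Schwann cell markers 0 were called. The part of other cell types in the results above was not tested.

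The difference between 1 dose and Mstn-null had the same sign in both experiments for most called genes, as given above. Calls made on both experiments together favour equal signs, so this does not test their agreement. A test of experiment 2 minus experiment 1 called 3 of 19938 genes (0.015%), with 1780 (8.93%) at an unadjusted p under 0.05, and 0 to 12 genes with any 1 array left out. For Mstn the difference was 1.85 in experiment 1 and 2.98 in experiment 2 (difference between them 1.13 ± 0.39 SE, adjusted p = 0.367). For Mettl21e these were -2.52 and -1.27, for Nos1 -0.62 and -1.27, for Mss51 -2.25 and -2.21, and for Casq2 1.62 and 1.94.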

How the data were processed

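RNA from quadriceps was measured on 35 arrays, 19 of them of the 2 groups compared. The table deposited by the authors holds log2 expression values. RMA, limma 3.4.4 and R 2.11.1 are the tools in the submitters' processing notes, without a stated role for each. Joint or separate normalization of the experiments and the build of the probes are not given in the sources used here. Of 35556 rows, 21789 had exactly 1 gene symbol, 1621 several and 12146 none. The row with the highest mean stood for each of 999 genes with over 1 row, which left 19938 genes, with no filter on dim ones.

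The fit (lmFit and eBayes of limma 3.58.1, R 4.3.3, two-sided) took class and experiment as terms over the 35 arrays, so that all groups share an estimate of the spread. A fit of 8 group means gave the difference between experiments. Per the labels, replicates are biological, and the number of arrays limits the precision. Genes named are Mstn, the 15 largest differences in each direction among called genes of equal sign in both experiments, up to 4 members of each list with the smallest p, and 8 genes of earlier results; clone names, olfactory receptors and small RNA genes were only counted, and further members are named where a count is spelled out. The comparison, lists and motifs were chosen with earlier results of these data known. The alternatives were other arrays, scalings, filters, weights and blocks. The fit was tested on simulated data.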

Additional observations from a re-analysis of the deposited data

Results flagged for a closer look

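In groups of 4 to 10 arrays, a single array far from the rest was looked for in 142 groups of values, and chance alone gives about 1 in 20. Mstn-null replicate 5 of experiment 2 was such an array for 4 genes and 1 list. Its Hmgn5 level was 7.37 with the next at 5.25, Esf1 was 8.33 with the next at 6.81, Inmt was 8.88 with the next at 7.67, Zfp36 was 7.54 with the next at 8.10, and the mean of the interferon list was 6.30 with the next at 6.03. Mstn-null replicate 4 of experiment 2 had a Mss51 level of 10.81 with the next at 9.58. Replicate 1 of that group had a Schwann cell mean of 7.06 with the next at 6.83. After 1 dose, replicate 3 of experiment 2 had a cell cycle mean of 6.17 with the nearest at 6.07 and a lymphocyte mean of 4.96 with the nearest at 5.20. That array also had the widest range of its group, 2.64.

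The difference between 1 dose and Mstn-null itself differed between the experiments for 3 genes in the test of that difference (limma, Benjamini-Hochberg adjusted). Leng8 stood at 1.30 in experiment 1 and -0.09 in experiment 2, a change of -1.39 (adjusted p = 0.0437). The adenylyl cyclase gene Adcy6 stood at 0.67 and -0.07, a change of -0.74 (adjusted p = 0.0437). The microRNA gene Mir126a, named here because the test chose it, stood at 0.93 and -0.20, a change of -1.13 (adjusted p = 0.0434).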

How the results depend on the processing

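The count of 3354 called genes stayed within 1.5 times of itself in the 10 settings of other scalings, filters, weights, row rules and array choices that are not named here (2332 to 3759). It fell to 501 with the array range as a covariate, to 400 in experiment 1 alone, to 1018 without Mstn-null replicates 2, 6, 7 and 8 of experiment 2, and to 1525 without replicates 6 to 8. The last 2 settings were chosen after seeing the data. Fewer arrays entered 3 of these fits; the cause was not tested. With each array left out in turn it ran from 2303 to 3960, lowest without 1-dose replicate 3 of experiment 2 and highest without Mstn-null replicate 5 of experiment 2.

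Groups share replicate numbers, and the labels do not say whether equal numbers mark paired arrays. Of 8 same-numbered pairs of 1-dose and Mstn-null arrays 4 correlated above 0.1 in their deviations (-0.187 to 0.415). The 1-dose arrays numbered 1 and 2 of experiment 1 correlated best with their own number (0.399 and 0.415), and the others did not. So few pairs cannot decide whether the arrays were paired. With the number as a replicate block 1244 genes were called. Mstn-null replicates 6 to 8 of experiment 2 share their number with no other array, so in that fit they add nothing to the difference. Leaving out only those arrays gave 1525, so the fall to 1244 is not due to the blocks alone.

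The count of 3 genes that differed between the experiments was 0 with arrays centred and 0 after quantile normalization, 17 with the range covariate, and 0 to 12 with each array left out. It was 4 to 12 without 1-dose replicate 1 of experiment 1 or without any 1 of Mstn-null replicates 2, 3, 5 and 7 and 1-dose replicate 5 of experiment 2, 2 without Mstn-null replicate 2 or 1-dose replicate 3 of experiment 1, and 0 without any 1 of the other arrays. The wider range after 1 dose was 0.14 over all rows (exact permutation p = 0.000427) and 0.14 to 0.19 with each array left out. Of the 123 called named genes, 105 kept the call without any 1 array, as did 29 of the 30 largest, Tnnc1 being the exception. Experiment 1 alone ended 73 of the 123 calls, the covariate 70, leaving out the 4 arrays 38, the replicate block 33, experiment 2 alone 26 and quantile normalization 9. Ccne2 alone changed sign, to -0.01 in experiment 1 alone. The part of the array range in the differences between the groups cannot be told apart from the groups themselves where they do not overlap, as in experiment 1. No detection calls were used here, so dim genes are not marked as such.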

Other observations

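Genes near Mstn on chromosome 1 were looked at apart from the lists. Of the 40 measured genes nearest to Mstn, 20 on each side in gene order, 9 were higher after 1 dose and 4 lower, with a median of 0.11, beside 10.9% and 5.9% over all genes. Mettl21e, the last of the genes on its side, stood at -1.64 (limma, adjusted p = 6.69e-05). On the same side Nabp1, a subunit of a single-stranded DNA binding complex, stood at 1.14 (adjusted p = 1.75e-05) and Hibch, an enzyme of valine breakdown, at 0.91 (adjusted p = 0.000891). On the other side the neighbouring mitochondrial chaperone genes Hspd1 and Hspe1 stood at 1.17 and 0.71 (adjusted p = 0.000212 and 0.000266), Ankrd44 at -0.56 (adjusted p = 0.000123) and Pgap1 at -0.47 (adjusted p = 0.00532). These genes were named after their values were seen. With the array range as a covariate Mettl21e, Nabp1, Hspd1, Hspe1, Ankrd44 and Pgap1 stayed past the threshold and Hibch did not (adjusted p = 0.0904). The strain of the null mice is not stated in the labels, and whether these differences come with the chromosome around the null allele was not tested.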
